A study of Mus musculus with 15 samples.

Results

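Bruch's membrane is the sheet of matrix that separates the retinal pigment epithelium (RPE) from the capillaries of the choroid, and an elastic layer runs through its middle. Elastic fibres are made of cross-linked elastin on a scaffold of fibrillin microfibrils. Fibulins and lysyl oxidases take part in their assembly, while matrix metalloproteinases, serine proteases and their inhibitors set how fast the matrix is turned over. Several of these genes are linked to inherited or age-related macular disease in people.

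The 10 genes described here were Eln, Fbn1, Efemp1, Fbln5, Lox, Loxl1, Timp3, Htra1, Mmp2 and Mmp14. They were listed by name for their place in the elastic layer or in its turnover, and were found by Ensembl identifier among the 55421 genes counted. All 10 were among the 18979 genes that passed the filters on low variance and low counts. The RNA came from posterior eyecups without the neural retina of C57BL/6J mice aged 2.5 months: 4 WT mice, 6 mice with 1 copy of the Tmem135 FUN025 mutation (FUN025/+) and 5 mice with both copies mutated (FUN025/FUN025). Each library came from 1 mouse, the mice were of both sexes, and the sex of a given mouse was not labelled. The mutation is carried in every cell, so the comparisons do not separate cell types.

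Levels are given as CPM, the usual RNA-Seq scale of the reads of a gene relative to the TMM-scaled total of its library, and as CPM per kilobase of exon where genes are compared with each other. Library totals were 18094977 to 20029919 counts for WT, 10903183 to 13456349 for FUN025/+ and 11053535 to 15038383 for FUN025/FUN025 mice, so every WT library was deeper than every mutant library. At these depths 3 counts equal 0.15 to 0.28 CPM, and the lowest count of any of the 10 genes in a library was 351, for Lox. Tmem135, the mutated gene, averaged 63.96 CPM for the WT, 75.0 CPM for the FUN025/+ and 88.3 CPM for the FUN025/FUN025 mice (SD 2.99, 7.30 and 4.57, n = 4, 6 and 5). Markers of the RPE (12 of 12 tested) and of scleral and choroidal fibroblasts (12 of 12 tested) were present in every genotype. Their summed levels overlapped between genotypes, at 22543 to 27984 CPM for the RPE and 3723 to 5492 CPM for the fibroblasts, and none of these markers passed the test in any comparison by edgeR, DESeq2 or limma-voom. At an unadjusted p under 0.05 by edgeR, 0 RPE and 0 fibroblast markers passed in FUN025/+ and 1 and 2 in FUN025/FUN025 eyecups against WT. In these comparisons 28.8% and 28.6% of all genes passed. Between the mutant genotypes 5 RPE markers passed, 4 of them lower in FUN025/FUN025 eyecups and 1 higher, and 0 fibroblast markers, against 6.23% of all genes. Photoreceptor markers summed to 2577 CPM in WT replicate 2 against 189 to 845 CPM in the other 14 libraries, whose values were 360.2 to 845 CPM in WT, 189.8 to 796 CPM in FUN025/+ and 189 to 525 CPM in FUN025/FUN025 eyecups. Striated muscle markers summed to 5947 to 10901 CPM in WT, 3188 to 8029.9 CPM in FUN025/+ and 4819 to 5845 CPM in FUN025/FUN025 eyecups.

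The promoters of the genes that differed are shown so that the loci behind the results can be seen. The RefSeq promoter table for GRCm38.p6, with 250 bases before and 50 after each start, held 6 of the 10 genes. Of the 3 genes that passed a test below it held Htra1, whose window is chr7:130935953-130936252 on the plus strand, and Fbn1, whose window is chr2:125506389-125506688 on the minus strand. Capitals mark the GC box, GGGCGG or its reverse complement CCGCCC, which 35.7% of the 32851 promoters in that table hold on either strand.
Htra1: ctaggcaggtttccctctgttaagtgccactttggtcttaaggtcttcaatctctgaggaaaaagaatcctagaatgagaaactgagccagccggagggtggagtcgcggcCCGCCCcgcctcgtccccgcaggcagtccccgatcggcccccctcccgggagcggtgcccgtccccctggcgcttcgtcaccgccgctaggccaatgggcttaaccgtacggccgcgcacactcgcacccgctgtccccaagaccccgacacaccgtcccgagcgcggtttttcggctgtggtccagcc
Fbn1: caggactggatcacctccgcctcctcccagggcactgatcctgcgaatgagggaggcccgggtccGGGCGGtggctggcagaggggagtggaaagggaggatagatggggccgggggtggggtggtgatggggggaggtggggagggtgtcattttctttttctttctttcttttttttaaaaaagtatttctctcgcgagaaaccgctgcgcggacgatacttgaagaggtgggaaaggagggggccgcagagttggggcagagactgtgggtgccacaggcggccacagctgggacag
Each holds 1 GC box, and neither holds TATAAA or TGACTCA on either strand, letters that 13.6% and 5.20% of the promoters hold. G and C make up 65.0% of the Htra1 window and 60.3% of the Fbn1 window.

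The 10 genes were expressed at very different levels in the same tissue. Per kilobase of exon, Timp3, an inhibitor of metalloproteinases that is stored in Bruch's membrane, was the highest at 600.1 ± 53.5 CPM per kb (SD, n = 4) in WT eyecups. It ranked 31st by this level among the 15024 protein-coding genes tested. It was 7.68 times above Efemp1, a fibulin of the extracellular matrix, at 78.2 ± 8.40 CPM per kb. Loxl1, a lysyl oxidase that cross-links elastin, followed at 58.0 ± 3.64 CPM per kb, then Mmp2, a gelatinase, at 47.3 ± 6.26, and Htra1, a secreted serine protease, at 42.0 ± 2.65 CPM per kb. Below these came Fbn1, the main microfibril protein, at 30.1 ± 3.41 CPM per kb, Fbln5, a fibulin that tethers elastin to microfibrils, at 27.2 ± 0.989, and Mmp14, a membrane-bound activator of Mmp2, at 24.1 ± 2.07 CPM per kb. Eln itself was at 18.0 ± 2.21 CPM per kb, and Lox, the other cross-linking enzyme, was the lowest at 9.16 ± 1.80 CPM per kb.

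Neighbours in this order were not all separated. In WT eyecups the libraries of Loxl1 and Mmp2, of Mmp2 and Htra1, of Fbn1 and Fbln5, and of Fbln5 and Mmp14 overlapped, while the other 5 neighbouring pairs did not. The same order held in FUN025/+ eyecups. In FUN025/FUN025 eyecups Fbn1, at 26.7 ± 1.18 CPM per kb (SD, n = 5), came after Fbln5, at 27.2 ± 2.53 CPM per kb, with overlapping libraries, and the order was otherwise that of WT. Timp3 alone took 75.1% to 80.6% of the reads counted on the 10 genes in a library.

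**Figure D1:**
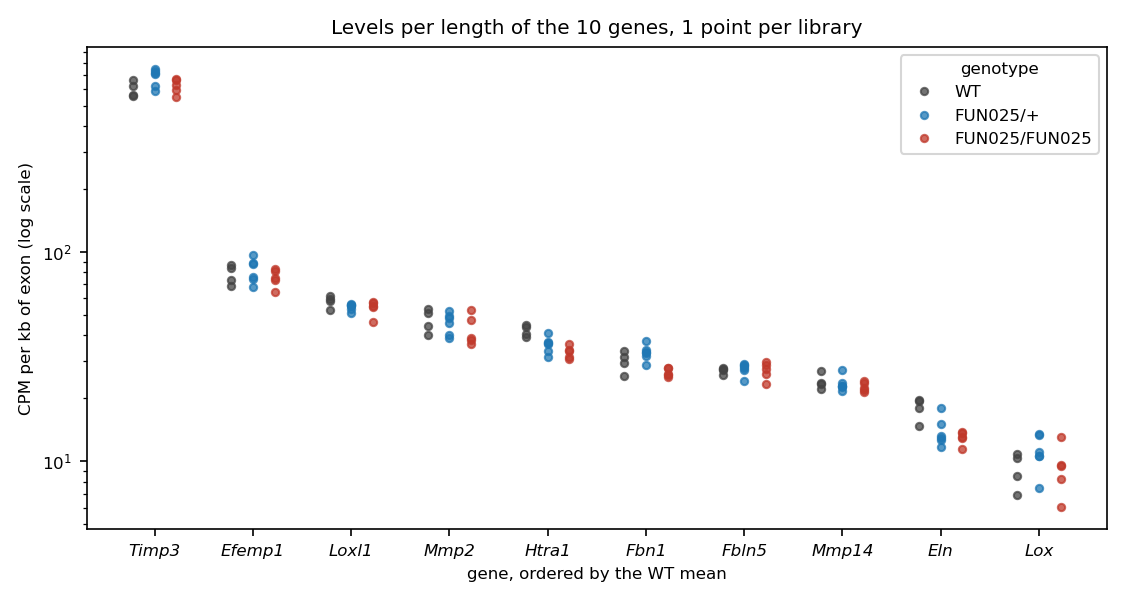
Level of each of the 10 genes in CPM per kilobase of exon on a log axis, with 1 point per mouse in grey for WT (n = 4), blue for FUN025/+ (n = 6) and red for FUN025/FUN025 (n = 5). Timp3 stands apart, at a mean of 600.1 CPM per kb in WT, and Lox has the lowest mean in each genotype.

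Counting limits differ between the genes. On GRCm38, 21.3% of the exon bases of Timp3 (chr10:86300372-86349506) are also exon of Syn3 on the opposite strand, and 20.1% of those of Fbn1 (chr2:125300594-125507993) are exon of Gm9913 on the opposite strand. For Eln (chr5:134702593-134747323) the share is 3.30%, with the antisense gene Gm30003, and for Lox it is 0.628%. The other 6 genes share no exon base with another gene. The strand setting of the counting was not stated, so reads of these overlapping parts cannot be told apart, and the levels of Timp3 and Fbn1 are uncertain to that extent. Syn3 was at 2516 ± 131 CPM (SD, n = 4) in WT and Gm9913 at 10.6 ± 3.92 CPM.

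Relative to WT, Htra1 and Eln fell in the eyecups of both mutant genotypes, and in the FUN025/FUN025 mice the fall was larger than the spread between mice for both genes. By edgeR's quasi-likelihood test with Benjamini-Hochberg adjustment over all genes tested, 2 of the 10 genes had an adjusted p under 0.05 between FUN025/+ and WT eyecups, both lower, where 13.7% of all genes passed in either direction and 6.61% were lower. Between FUN025/FUN025 and WT eyecups the same 2 genes passed, both lower, where 14% of all genes passed and 7.02% were lower. Between FUN025/FUN025 and FUN025/+ eyecups 1 gene passed, Fbn1, which was lower in FUN025/FUN025 eyecups, where 0.522% of all genes passed and 0.195% were lower. With 10 genes these counts are a description of the genes named, and nothing was read from them about the list. The comparisons of the mutant genotypes with WT share the 4 WT mice.

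**Figure D2:**
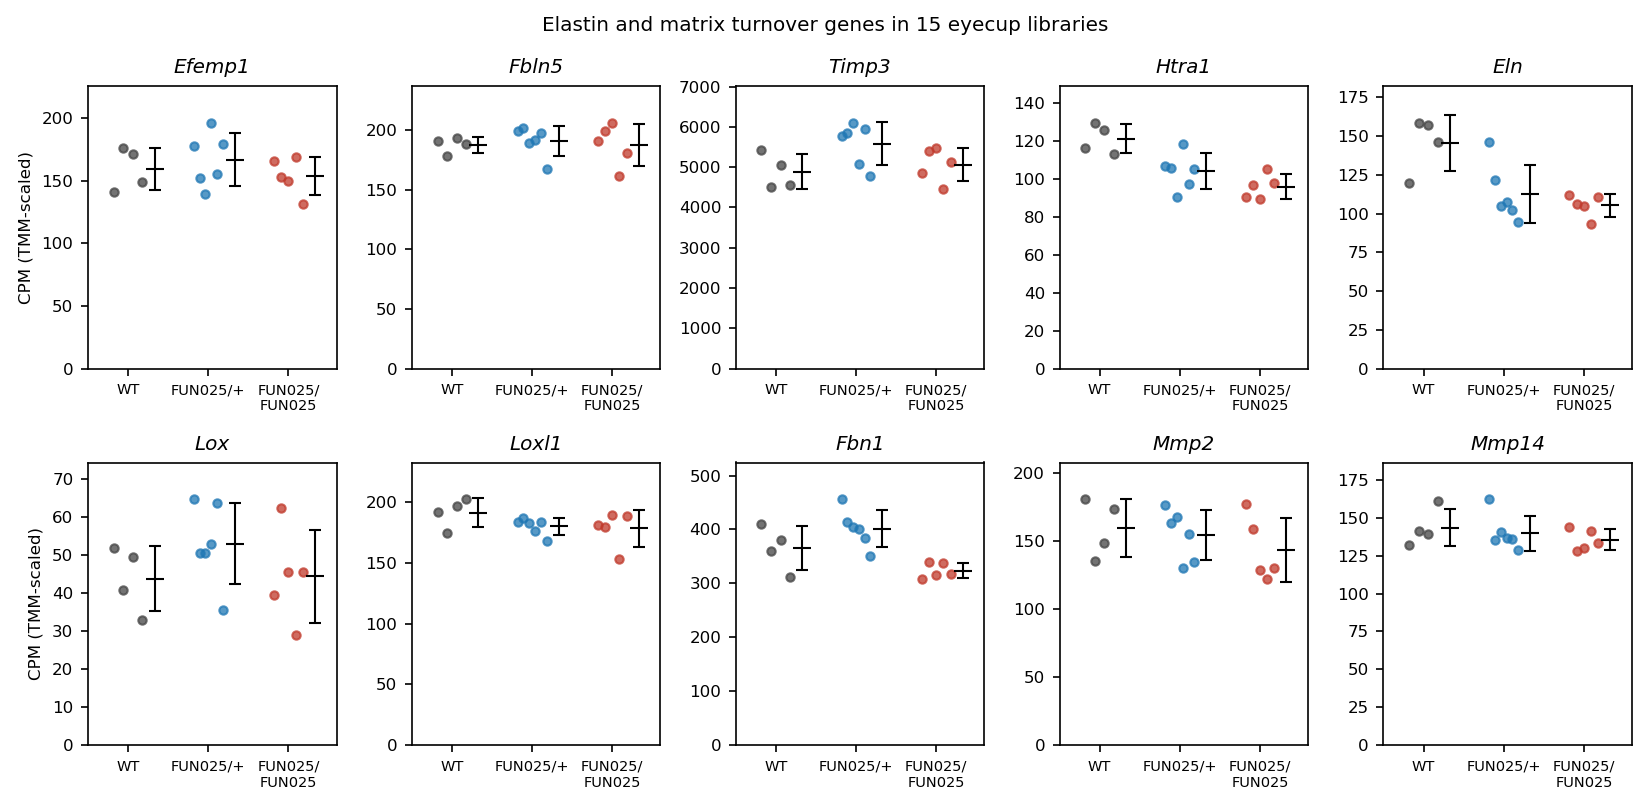
CPM of each of the 10 genes in every library, 1 panel per gene, with 1 point per mouse and, beside the points, the mean and SD of WT (n = 4), FUN025/+ (n = 6) and FUN025/FUN025 (n = 5). Each axis starts at 0. The FUN025/FUN025 points of Htra1 and Eln lie below every WT point, and those of Fbn1 below every FUN025/+ point.

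Htra1 (ENSMUSG00000006205, chr7:130936111-130985660, plus strand) codes for a serine protease of the extracellular matrix and lies on the same chromosome as Tmem135 (chr7:89139714-89404222). In the 4 WT mice it was at 116, 129, 126 and 113 CPM. In the 5 FUN025/FUN025 mice it was at 90.4, 96.5, 89.0, 105 and 97.8 CPM. Every FUN025/FUN025 library was thus below every WT library, which over all genes held in this direction for 7.5%. In the 6 FUN025/+ mice the lowest value was 90.3, the median 105 and the highest 118 CPM, which overlapped both other genotypes. The log2 fold change from WT was −0.34 (SE 0.069, adjusted p = 0.00309, edgeR) in FUN025/FUN025 eyecups, a level 0.791 times that of WT (95% interval 0.716 to 0.874). In FUN025/+ eyecups it was −0.22 (SE 0.066, adjusted p = 0.0321), a level 0.858 times that of WT (95% interval 0.779 to 0.944). The difference between the mutant genotypes was −0.12 (adjusted p = 0.905), with an interval of 0.842 to 1.01 times.

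Eln (ENSMUSG00000029675) codes for elastin, the rubber-like core of the elastic layer, and its product is the substrate of the lysyl oxidases. The WT mice were at 119.9, 159, 157 and 146 CPM. The FUN025/FUN025 mice were at 112, 106, 105, 93.1 and 111 CPM, all below the lowest WT mouse. The FUN025/+ mice had a lowest value of 94.5, a median of 106 and a highest of 146 CPM and overlapped both, with 4 of the 6 below every WT mouse. In FUN025/FUN025 eyecups the log2 fold change from WT was −0.46 (SE 0.112, adjusted p = 0.0132, edgeR), a level 0.725 times that of WT (95% interval 0.614 to 0.855). In FUN025/+ eyecups it was −0.37 (SE 0.107, adjusted p = 0.0348), or 0.776 times (95% interval 0.662 to 0.909). Between the mutant genotypes it differed by −0.10 (adjusted p = 1), an interval of 0.803 to 1.09 times.

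The falls in FUN025/FUN025 eyecups stayed past the threshold with each of the 15 mice left out in turn, between −0.37 and −0.30 for Htra1 and between −0.55 and −0.41 for Eln. Without WT replicate 2, the library with the high photoreceptor signal, they were −0.30 (adjusted p = 0.0161) and −0.41 (adjusted p = 0.0431). With every library thinned to the depth of the shallowest they were −0.32 (adjusted p = 0.00875) and −0.51 (adjusted p = 0.00743). The calls in FUN025/+ eyecups were less stable: Htra1 lost its call without WT replicate 2 or 3 or FUN025/+ replicate 3 or 5, and Eln without WT replicate 2, 3 or 4 or FUN025/+ replicate 3, 4, 5 or 6, with adjusted p up to 0.116 and 0.104.

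Some choroid endothelium markers were also lower in the mutant genotypes. Over all genes 6.61% and 7.02% were lower than in WT in FUN025/+ and FUN025/FUN025 eyecups. Of 12 choroid endothelium markers, 4 and 8 were lower by the same test, and none was higher. Their summed level was 1440.04 to 1696 CPM in WT, 1158 to 1573 CPM in FUN025/+ and 1082 to 1308 CPM in FUN025/FUN025 eyecups, and none of the 12 was at 0 in every library. With the mean level of these markers as a covariate, an alternative chosen after seeing the data, the change of Eln in FUN025/FUN025 eyecups was −0.19 (adjusted p = 0.541) and that of Htra1 was −0.52 (adjusted p = 0.00705). In FUN025/+ eyecups they were −0.23 (adjusted p = 0.206) and −0.31 (adjusted p = 0.00976). Of the markers of other tissues, 2 of 12 smooth muscle and pericyte markers were lower than in WT in each mutant genotype, against the same 6.61% and 7.02% of all genes. Of 11 striated muscle markers 3 were lower in each by edgeR and 5 in each by DESeq2, and by edgeR so were 0 and 1 of 14 photoreceptor markers in FUN025/+ and FUN025/FUN025 eyecups. DESeq2 called 4 and 3 photoreceptor markers lower, and 11 and 12 were lower at an unadjusted p under 0.05 by edgeR, with median log2 fold changes of −1.78 and −1.85. With the striated muscle and photoreceptor markers as covariates, Htra1 in FUN025/FUN025 eyecups was at −0.32 (adjusted p = 0.175) and Eln at −0.74 (adjusted p = 0.0214). In FUN025/+ eyecups with these covariates Htra1 was at −0.21 (adjusted p = 0.501) and Eln at −0.70 (adjusted p = 0.0732). Fewer cells of a type and less RNA per cell cannot be told apart in such bulk samples.

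Fbn1 (ENSMUSG00000027204) codes for fibrillin, the building block of the microfibrils on which elastin is laid down. It was at 308, 340.3, 315, 337 and 317 CPM in the FUN025/FUN025 mice. In the FUN025/+ mice it had a lowest value of 351, a median of 402 and a highest of 456 CPM, all above the FUN025/FUN025 mice, a separation that 0.495% of all genes showed in this direction. The WT mice were at 409.7, 359, 380.2 and 311 CPM and overlapped both mutant genotypes. Fbn1 in FUN025/FUN025 eyecups differed from that in FUN025/+ eyecups by −0.31 on the log2 scale (SE 0.068, adjusted p = 0.0437, edgeR), or 0.805 times (95% interval 0.729 to 0.889). Against WT it was 0.14 (adjusted p = 0.221) in FUN025/+ and −0.18 (adjusted p = 0.130) in FUN025/FUN025 eyecups. The lower level in FUN025/FUN025 than in FUN025/+ eyecups passed without WT replicate 1 or 4 or FUN025/+ replicate 6, and lost its call without any 1 of the other 12 mice, with values of −0.35 to −0.27 over the 15 fits. The call was also lost at thinned depth (−0.31, adjusted p = 0.0527), without scaling (−0.31, adjusted p = 0.0594) and with Xist (−0.31, adjusted p = 0.0516), the fibroblast markers (−0.28, adjusted p = 0.0826) or the choroid endothelium markers (−0.28, adjusted p = 0.325) as a covariate. Without WT replicate 4 the value against WT was −0.24 (adjusted p = 0.0380). Gm9913, which overlaps Fbn1, differed between the mutant genotypes by −0.32 (adjusted p = 0.887).

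**Figure D3:**
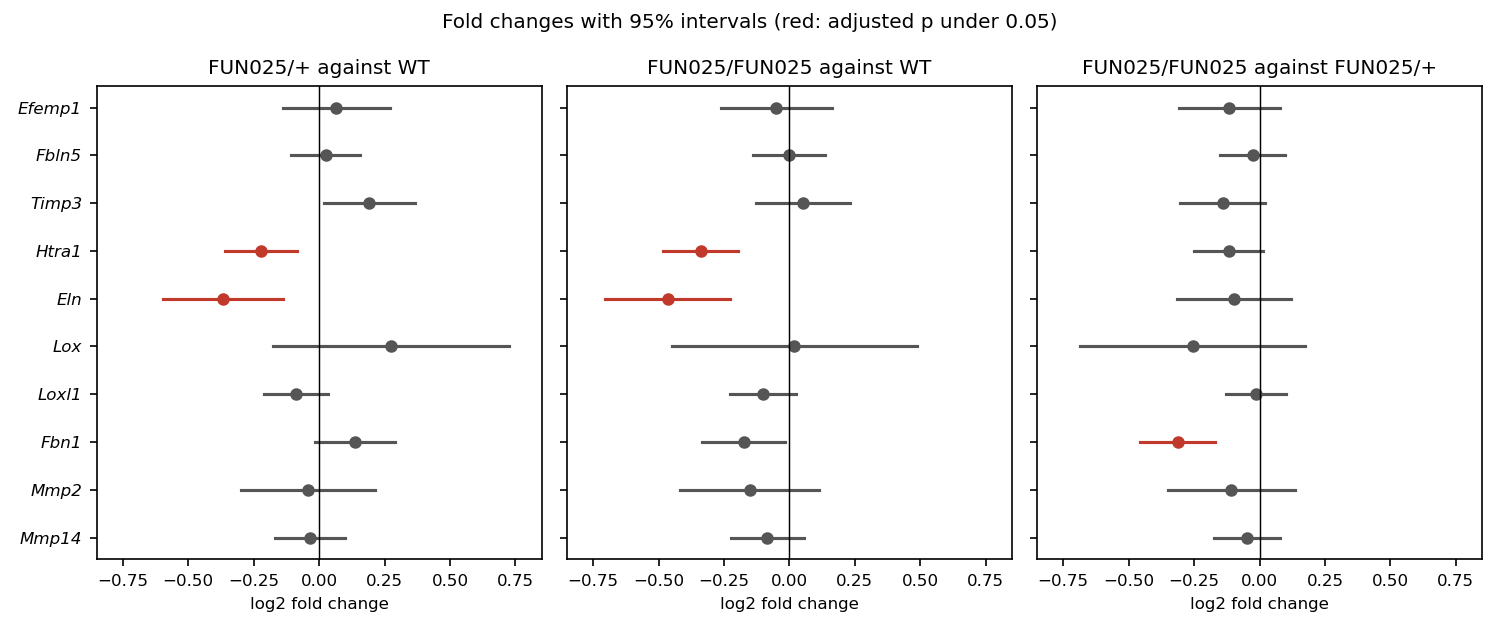
Log2 fold change of the 10 genes in the 3 comparisons, with 95% intervals as lines and red for an adjusted p under 0.05 over all genes tested. Htra1 and Eln are red and below 0 in both comparisons with WT, and Fbn1 in FUN025/FUN025 against FUN025/+.

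Timp3 (ENSMUSG00000020044), whose product holds back metalloproteinases, was at 5428, 4513, 5053 and 4555 CPM in the WT mice. The FUN025/+ mice had a lowest value of 4779, a median of 5798 and a highest of 6099 CPM, and the FUN025/FUN025 mice were at 4854, 5401, 5469, 4461 and 5138 CPM. The genotypes overlapped throughout. The log2 fold change from WT was 0.19 (SE 0.083, adjusted p = 0.131, edgeR) in FUN025/+ eyecups and 0.05 (adjusted p = 0.738) in FUN025/FUN025 eyecups. With the fibroblast or the choroid endothelium markers as a covariate the first of these was 0.22 (adjusted p = 0.0309) and 0.30 (adjusted p = 0.0372). Syn3, which shares exon bases with it, was 0.05 (adjusted p = 0.713) in FUN025/+ and −0.07 (adjusted p = 0.597) in FUN025/FUN025 eyecups.

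Efemp1 and Fbln5, the fibulins described here, did not pass the test in any comparison. Fbln2, a fibulin of the partner list below, was lower in FUN025/FUN025 eyecups than in WT (log2 fold change −0.52, adjusted p = 0.0294, edgeR). Efemp1 (ENSMUSG00000020467, chr11:28853204-28926743) was at 159 ± 17.1 CPM in WT, 167 ± 21.3 CPM in FUN025/+ and 154 ± 15.2 CPM in FUN025/FUN025 mice (SD, n = 4, 6 and 5). Against WT its level was 1.05 times (95% interval 0.908 to 1.21) in FUN025/+ and 0.966 times (0.834 to 1.12) in FUN025/FUN025 eyecups. Fbln5 (ENSMUSG00000021186, chr12:101746565-101819055) was at 188 ± 6.83, 191 ± 12.4 and 188 ± 17.5 CPM in the same order. Its level was 1.02 times that of WT (95% interval 0.928 to 1.12) in FUN025/+ and 0.999 times (0.908 to 1.10) in FUN025/FUN025 eyecups. These intervals exclude a change of the size seen for Eln in FUN025/FUN025 eyecups, 0.725 times.

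Loxl1 and Lox, the cross-linking enzymes described here, did not pass the test in any comparison either. Loxl4, a lysyl oxidase of the partner list below, was lower in FUN025/FUN025 eyecups than in WT (log2 fold change −0.73, adjusted p = 0.0152, edgeR). Loxl1 (ENSMUSG00000032334, chr9:58287738-58313186) was at 191 ± 12.0 CPM in WT, 180.0 ± 7.04 CPM in FUN025/+ and 178 ± 14.97 CPM in FUN025/FUN025 eyecups (SD, n = 4, 6 and 5). Its level was 0.941 times that of WT (95% interval 0.865 to 1.02) in FUN025/+ and 0.932 times (0.854 to 1.02) in FUN025/FUN025 eyecups. Lox (ENSMUSG00000024529, chr18:52516067-52529867) varied most from mouse to mouse, from 33.0 to 51.9 CPM in WT, 35.5 to 64.7 CPM in FUN025/+ and 28.9 to 62.4 CPM in FUN025/FUN025 eyecups. Its coefficient of variation within a genotype was 19.6% to 27.5%, against 3.64% to 16.5% for the other 9 genes. The interval of its level against WT was correspondingly wide, 0.885 to 1.66 times in FUN025/+ and 0.732 to 1.40 times in FUN025/FUN025 eyecups. In FUN025/FUN025 eyecups the lower end lay just above the 0.725 times of Eln.

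Mmp2 and Mmp14, the metalloproteinases described here, gave no call either. Of those in the metalloproteinase list below, Mmp17 was lower in FUN025/FUN025 eyecups than in WT (log2 fold change −0.94, adjusted p = 0.00102, edgeR). Mmp11 was lower than in WT in FUN025/+ (−0.23, adjusted p = 0.0202) and FUN025/FUN025 eyecups (−0.23, adjusted p = 0.0248). Mmp2 (ENSMUSG00000031740, chr8:92827291-92853420) was at 159.5 ± 21.1 CPM in WT, 155 ± 18.5 CPM in FUN025/+ and 143 ± 23.6 CPM in FUN025/FUN025 eyecups (SD, n = 4, 6 and 5). Mmp14 (ENSMUSG00000000957, chr14:54431612-54445364), which cuts the Mmp2 proenzyme at the cell surface, was at 144 ± 12.4, 140.0 ± 11.5 and 135 ± 6.92 CPM. In FUN025/FUN025 eyecups Mmp2 was 0.900 times (95% interval 0.749 to 1.08) and Mmp14 0.944 times (0.857 to 1.04) the WT level. The interval of Mmp14 excludes the 0.791 times seen for Htra1, and that of Mmp2 does not.

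Across the 10 genes, the median log2 fold change from WT was −0.0055 in FUN025/+ and −0.092 in FUN025/FUN025 mice, and it was −0.11 between FUN025/FUN025 and FUN025/+ eyecups. Over all genes tested the medians were −0.0023, −0.0071 and −0.0040. Of the 10 genes 5, 8 and 10 lay below 0 in these comparisons. The 8 include Fbln5 at −0.0015, which lay at 0.0019 with DESeq2's size factors and 0.016 with upper quartile scaling. At an unadjusted p under 0.05, 3, 3 and 1 of the 10 genes passed, against 28.8%, 28.6% and 6.23% of all genes.

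The variation of the genes from mouse to mouse within genotypes was compared next. For each of the 45 pairs, deviations of log2 CPM from the genotype means were correlated over the 15 libraries, with a two-sided permutation test within genotypes (100000 resamples). Fbln5 and Loxl1 gave r = 0.81 (adjusted permutation p = 0.0489) and rho = 0.58 (adjusted permutation p = 0.230). Timp3 and Lox gave r = 0.79 (adjusted permutation p = 0.0362) and rho = 0.64 (adjusted permutation p = 0.175), and Fbln5 and Timp3 gave r = 0.76 (adjusted permutation p = 0.0362) and rho = 0.64 (adjusted permutation p = 0.175). Thus 3 pairs passed by r, all with a positive sign, and none by rho, where 9 had an unadjusted permutation p under 0.05. Without the 2 mice farthest from the median of the first gene, r was 0.52, 0.60 and 0.51. The lowest value, between Efemp1 and Timp3, was r = −0.67 (adjusted permutation p = 0.104) with rho = −0.75 (adjusted permutation p = 0.175). Values of one library share its depth and its tissue make-up.

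The same deviations were set against the mean deviation of each of the 11 marker lists, 110 relations in all. By both r and rho, 2 passed. Efemp1 went against the 12 RPE markers, with r = −0.91 (adjusted permutation p = 0.0253) and rho = −0.825 (adjusted permutation p = 0.0325). Within WT, FUN025/+ and FUN025/FUN025 mice r was −0.99, −0.94 and −0.82, and without the 2 mice farthest from the median of the markers it was −0.87. Mmp2 went with the 12 fibroblast markers, with r = 0.85 (adjusted permutation p = 0.0366) and rho = 0.86 (adjusted permutation p = 0.0325). Its r was 0.63, 0.88 and 0.93 within the genotypes and 0.83 without the 2 farthest mice. Mmp2 also passed by r with the choroid endothelium markers (r = 0.78, adjusted permutation p = 0.0366, and rho = 0.72, adjusted permutation p = 0.142), as did Loxl1 (r = 0.65, adjusted permutation p = 0.0366, and rho = 0.58, adjusted permutation p = 0.214). For Eln the value with the endothelium markers was r = 0.52, for Htra1 r = −0.55, and neither passed.

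For each of the 10 genes, the most alike of 17577 other genes by r of these deviations over the 15 libraries was looked up, as a description with no test, since it is the highest of so many. Fbln5 was most alike Lamc3, a laminin chain (r = 0.95), and Mmp2 was most alike Ltbp4, a latent TGF-beta binding protein of elastic fibres (r = 0.90). Lox was most alike Gucy1a1, a subunit of the nitric oxide receptor guanylate cyclase (r = 0.90), and Fbn1 was most alike Sp1, a transcription factor (r = 0.91). Efemp1 was most alike Dio3, a deiodinase that inactivates thyroid hormone (r = 0.94). Mmp14 was most alike Gpihbp1, which holds lipoprotein lipase on capillary walls (r = 0.90). The most alike genes of Timp3, Htra1, Loxl1 and Eln were Gm47173 (r = 0.93), Tceal6 (r = 0.93), Serpinb6c (r = 0.91) and Enkd1 (r = 0.82), so Eln had the least close partner of the 10.

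The other genes of elastic fibre assembly were taken as a list. Of 36 elastic fibre and microfibril partners, 2 rose and 1 fell in FUN025/+ relative to WT, 1 rose and 6 fell in FUN025/FUN025 against WT, and 0 passed between FUN025/FUN025 and FUN025/+ by edgeR, DESeq2 or limma-voom. Between the mutant genotypes 9 of the 36 had an unadjusted p under 0.05 by edgeR, 3 higher and 6 lower, against 6.23% of all genes. The calls against WT were 8.33% and 19.4% of the list, against 13.7% and 14% of all genes. Atp7a, the copper transporter that supplies lysyl oxidases, was higher than in WT (28.2 ± 5.46 CPM, SD, n = 4), at 42.96 ± 3.63 CPM with 1 mutated copy (SD, n = 6) and 48.8 ± 5.95 CPM with both copies mutated (SD, n = 5), by 0.61 (adjusted p = 0.00283) and 0.79 (adjusted p = 4.15e-04) on the log2 scale. Neu1, a sialidase that takes part in elastin assembly as well as in the lysosome, was at −0.32 (adjusted p = 0.00115) and −0.25 (adjusted p = 0.00910). Adamtsl2, a microfibril-associated protein, fell from 18.6 ± 1.73 CPM in WT to 12.3 ± 1.78 CPM in FUN025/FUN025 eyecups (log2 fold change −0.60, adjusted p = 0.00298). Hmcn1, a large fibulin-like matrix protein, rose in FUN025/+ eyecups, by 0.27 (adjusted p = 0.0124). The median over the list was −0.056, −0.078 and −0.040 in the 3 comparisons.

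Among 36 tested of 39 metalloproteinases and their inhibitors, 1 rose and 3 fell in FUN025/+ and 3 rose and 5 fell in FUN025/FUN025 eyecups against WT, while 2 were higher in FUN025/FUN025 than in FUN025/+ eyecups. These were 11.1%, 22.2% and 5.56% of the list, against 13.7%, 14% and 0.522% of all genes. In FUN025/+ eyecups DESeq2 called 3 higher and 4 lower, and limma-voom 2 higher and 4 lower. Neither of the 2 genes that differed between the mutant genotypes is a protease. A2m, a broad protease inhibitor of the plasma, was at 354, 347, 351 and 323 CPM in the WT mice and at 845, 998, 1196, 819.9 and 888 CPM in the FUN025/FUN025 mice. The FUN025/+ mice ran from 332 to 407 CPM, so no FUN025/FUN025 mouse overlapped with any other mouse, and the log2 fold change was 1.47 from WT (adjusted p = 2.02e-08) and 1.31 from FUN025/+ (adjusted p = 4.46e-08). Pcolce, an enhancer of procollagen processing, was at 485 ± 32.4, 463 ± 23.9 and 655 ± 52.8 CPM in WT, FUN025/+ and FUN025/FUN025 eyecups, with changes of 0.44 from WT (adjusted p = 1.97e-04) and 0.50 from FUN025/+ (adjusted p = 7.49e-05). Adam10 and Adam15 are membrane proteases. Adam10 rose by 0.24 in FUN025/+ (adjusted p = 0.00487) and 0.24 in FUN025/FUN025 eyecups (adjusted p = 0.00553), whereas Adam15 fell by 0.34 (adjusted p = 0.00468) and 0.46 (adjusted p = 4.82e-04). Adamts15, a secreted protease of proteoglycans, fell by 0.42 (adjusted p = 0.00196) and 0.49 (adjusted p = 5.94e-04).

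Of 19 tested of 25 elastin-degrading and other serine or cysteine proteases and their inhibitors, 0 rose and 1 fell in FUN025/+, 0 rose and 4 fell in FUN025/FUN025 eyecups against WT, and 0 passed between the mutant genotypes by edgeR, DESeq2 or limma-voom. In the last comparison 3 of the 19 had an unadjusted p under 0.05 by edgeR, against 6.23% of all genes. The calls against WT were 5.26% and 21.1% of the list, against 13.7% and 14% of all genes. Those named are Plat, the tissue plasminogen activator, at −0.37 (adjusted p = 0.0135) and −0.35 (adjusted p = 0.0219), and, in FUN025/FUN025 eyecups, Serpinh1, a collagen chaperone, at −0.21 (adjusted p = 0.0229) and Furin, a proprotein convertase, at −0.16 (adjusted p = 0.0395). The median of this list in FUN025/FUN025 eyecups was above 0, at 0.038, although each of its genes called by edgeR was lower, while DESeq2 called 2 higher and 4 lower there and 3 lower in FUN025/+ eyecups. Of 28 genes of basement membrane glycoproteins and proteoglycans, 1 rose and 2 fell in FUN025/+, 1 rose and 4 fell in FUN025/FUN025 eyecups, and 0 passed between the mutant genotypes by any of the 3 tools. There 2 of the 28 had an unadjusted p under 0.05 by edgeR, against 6.23% of all genes. The calls against WT were 10.7% and 17.9% of the list, near the 13.7% and 14% of all genes. Frem1, a basement membrane adhesion protein, rose from 78.1 ± 6.36 CPM in WT to 99.4 ± 5.53 CPM in FUN025/+ and 112 ± 10.2 CPM in FUN025/FUN025 eyecups (adjusted p = 0.00201 and 6.04e-05). Tinagl1, a matricellular protein, fell by 0.31 (adjusted p = 0.00407) and 0.39 (adjusted p = 8.82e-04), Vtn, the adhesive glycoprotein vitronectin, by 0.44 (adjusted p = 0.0283) and 0.45 (adjusted p = 0.0299), and Hspg2, the proteoglycan perlecan, by 0.29 in FUN025/FUN025 eyecups (adjusted p = 0.0294).

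TGF-beta, held in latent form on fibrillin microfibrils, controls the making of elastin and of its cross-linking enzymes. Of 26 genes for TGF-beta ligands, receptors and matrix response, 2 rose and 3 fell in FUN025/+, 4 rose and 7 fell in FUN025/FUN025 eyecups against WT, and 1 was lower in FUN025/FUN025 than in FUN025/+. These were 19.2%, 42.3% and 3.85% of the list, against 13.7%, 14% and 0.522% of all genes. Smad2, a signal transducer, rose by 0.23 (adjusted p = 0.00457) and 0.29 (adjusted p = 0.00119). Eng, a co-receptor of endothelial cells, fell from 261 ± 25.1 CPM in WT to 196 ± 24.6 CPM in FUN025/+ and 172 ± 22.7 CPM in FUN025/FUN025 eyecups (adjusted p = 0.0172 and 0.00195), and Acvrl1, an endothelial receptor, fell by 0.38 in FUN025/FUN025 eyecups (adjusted p = 0.00458). Itgb8, an integrin subunit that takes part in freeing latent TGF-beta, rose by 0.35 (adjusted p = 0.0198) and 0.32 (adjusted p = 0.0370). Itgav, the integrin chain that pairs with Itgb8, was at 492 ± 32.0, 552 ± 72.4 and 400.5 ± 24.7 CPM, and was lower in FUN025/FUN025 than in FUN025/+ eyecups (log2 fold change −0.46, adjusted p = 0.00512), the comparison in which Fbn1 was called. Unlike Fbn1, Itgav was also called lower in FUN025/FUN025 eyecups than in WT (−0.30, adjusted p = 0.0281, edgeR).

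The genes named from these lists were also followed under the other settings, in the 36 combinations of gene and comparison that passed the test. With the choroid endothelium markers as a covariate 20 of the 36 lost their call, and with the striated muscle and photoreceptor markers 26 did. Calls fell over all genes too. With the muscle and photoreceptor markers 194 genes passed against WT in FUN025/+ eyecups, against 2600 without them. In FUN025/FUN025 eyecups these counts were 517 and 2666, and fewer genes also passed there with the endothelium covariate. A2m kept its call in all 33 fits in both comparisons, as did Frem1 against WT, Atp7a in FUN025/FUN025 eyecups and Pcolce between the mutant genotypes. With the endothelium covariate the values in FUN025/FUN025 eyecups were −0.13 for Eng (adjusted p = 0.432), −0.12 for Acvrl1 (adjusted p = 0.547), −0.021 for Serpinh1 (adjusted p = 0.918) and 0.043 for Hspg2 (adjusted p = 0.847), the last with its sign changed. Other lost calls there did not shrink, such as Vtn at −0.54 (adjusted p = 0.178, edgeR), Itgb8 at 0.42 (adjusted p = 0.141) and Adam10 at 0.24 (adjusted p = 0.133).

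**Figure D4:**
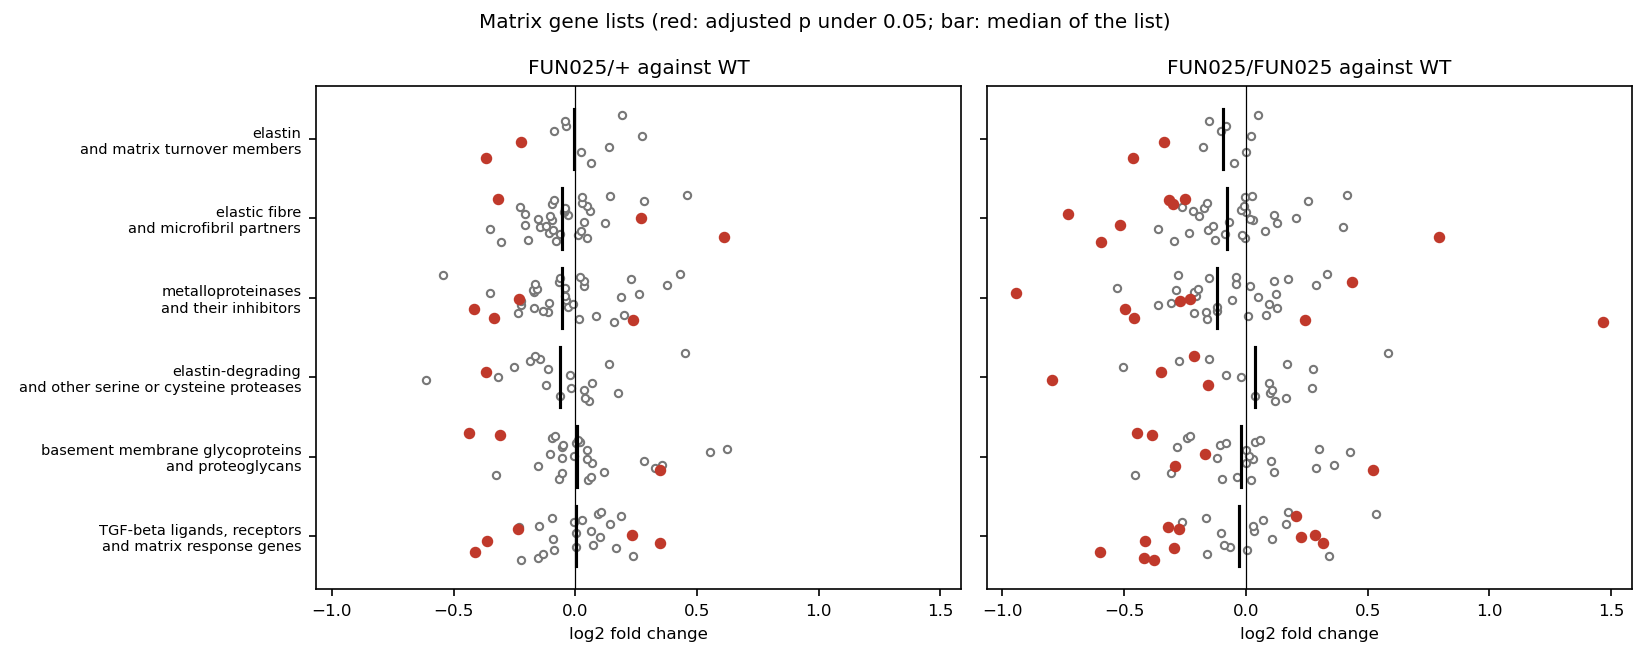
Log2 fold change from WT of each gene of the 6 matrix gene lists, the 10 genes included, in FUN025/+ (left) and FUN025/FUN025 eyecups (right), with 1 point per gene, red for an adjusted p under 0.05, and a bar at the median of the list. In FUN025/FUN025 eyecups red points below 0 outnumber those above 0 in every list, and A2m is the point at 1.47.

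Of the 3 genes with a call, Htra1 in FUN025/FUN025 eyecups kept its call in 17 of the 18 other settings, leaving out a mouse not counted, and Eln kept its own in 16 of 18. Fbn1 between the mutant genotypes kept its call in 13 of 18, with log2 fold changes of −0.35 to −0.28 and adjusted p from 0.00256 to 0.325. In FUN025/+ eyecups Htra1 and Eln each kept theirs in 11 of 18.

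**Figure D5:**
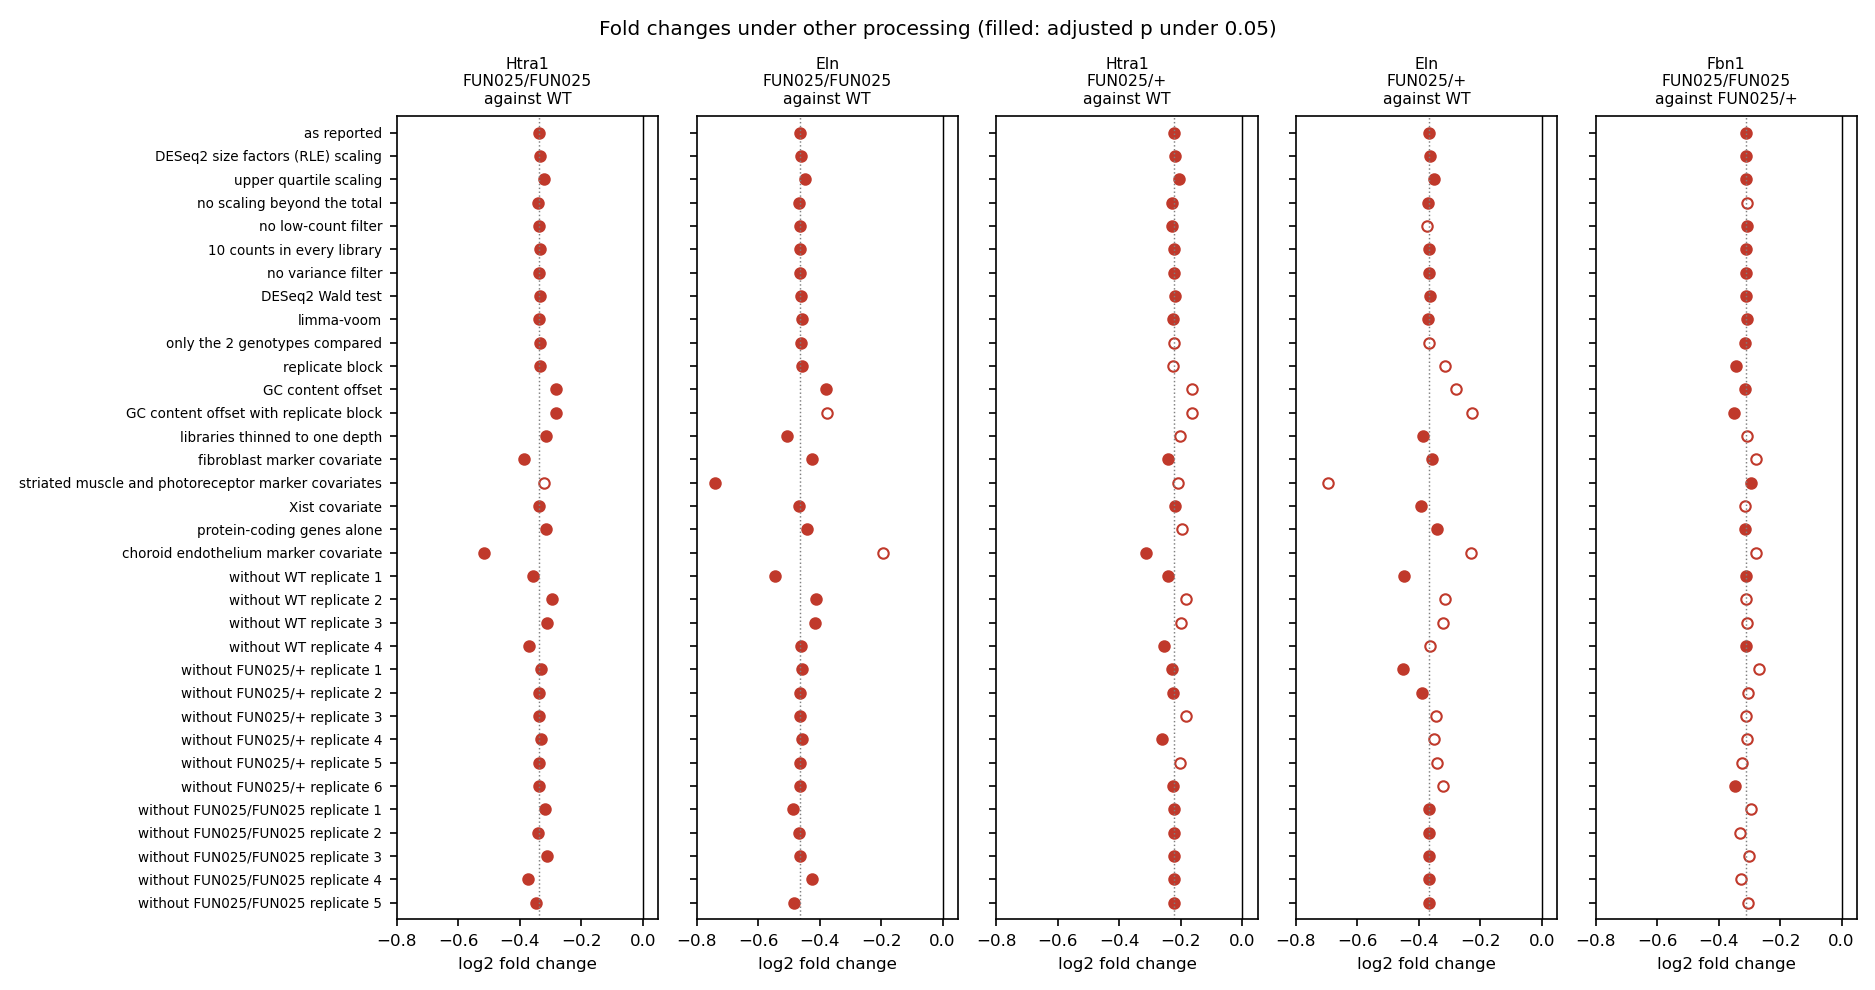
Log2 fold changes of Htra1 and Eln against WT and of Fbn1 between the mutant genotypes under the 18 other settings and with each of the 15 mice left out, with a dotted line at the value as reported and filled points for an adjusted p under 0.05. The direction held throughout, and Eln in FUN025/FUN025 eyecups moved from −0.74 to −0.19 with different marker covariates.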

How the data were processed

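Posterior eyecups of 15 mice were sequenced after poly(A) selection, with NEBNext Ultra libraries and paired-end HiSeq reads. For every library the authors deposited a table of raw read counts, as whole numbers per Ensembl gene and not normalized. The submitters' processing notes list FastQC 0.11.8, Trimmomatic 0.39, HISAT2 2.1.0, SAMtools, featureCounts 2.0.0 and GRCm38, and a strand setting is not given in the sources used here. The 10 genes and all gene lists were chosen with earlier results of these data known, and no p was adjusted over a list alone.

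Following the study, genes in the lowest 15% by variance were dropped, leaving 47108, and low counts were removed with filterByExpr, leaving 18979. TMM scaling and edgeR 4.0.16 (quasi-likelihood, robust, all 15 mice in one fit, Benjamini-Hochberg, threshold 0.05) were used, with R 4.3.3, limma 3.58.1, DESeq2 1.42.0, Python 3.11.15, numpy 2.4.6, pandas 2.3.3, scipy 1.17.1 and matplotlib 3.10.9. The scripts were tested on simulated data. Log2 CPM for correlations used a prior count of 2. Symbols, exon lengths and positions came from GENCODE M21 on GRCm38, which held 55240 of the 55421 genes. Counting limits of 3 reads cover counting error only.

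Named genes are the 10, Tmem135, up to 3 called genes of each list and comparison with the smallest adjusted p, and the most alike gene of each of the 10. Genes that overlap the exons of the 10 were added after their positions were seen. Fbln2, Loxl4, Mmp11 and Mmp17 were added as called relatives of the 10, and were not followed under the other settings. Libraries of a genotype are separate mice by their labels, and no pair held identical counts (chi-square per gene 3.16 to 18.3). The sex of each mouse entered only through Xist as an alternative. Alternatives were other scalings, tests, filters and covariates, thinned depth, an offset for GC content, the replicate number as a block, and each mouse left out.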

Additional observations from a re-analysis of the deposited data

Results flagged for a closer look

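Of the 30 groups formed by the 10 genes and 3 genotypes, 2 held a mouse far below the others and 1 a mouse far above them, with a gap to the nearest mouse that took an unusually large part of the group's range. About 1 in 20 groups shows such a gap by chance alone. Fbln5 was at 168 CPM in FUN025/+ replicate 6, against 189.6 CPM in the next lowest FUN025/+ mouse. Loxl1 was at 153 CPM in FUN025/FUN025 replicate 4, against 179.5 CPM in the next lowest FUN025/FUN025 mouse. Mmp14 was at 162 CPM in FUN025/+ replicate 1, against 140.5 CPM in the next highest FUN025/+ mouse. None of these genes passed a test with or without that mouse.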

How the results depend on the processing

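For the 10 genes, no alternative reversed a value that passed the test. Each of the 10 genes had at least 351 counts in a library, yet calls changed at thinned depth. There Fbn1 lost its call between the mutant genotypes, and fewer of the 10 genes passed in FUN025/+ eyecups against WT. Every WT library was deeper than every mutant library. The cause of each change below was not tested.

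Between FUN025/+ and WT, the number of the 10 genes past the threshold was 0 with the 2 genotypes alone, with the replicate block, with the GC content offset, with both together and with the striated muscle and photoreceptor covariates, and 1 without a low-count filter, at thinned depth and with protein-coding genes alone. With the fibroblast covariate it was 3, Timp3 added, and with the choroid endothelium covariate it was 2, with Timp3 in place of Eln. It was 0 to 2 with each mouse left out. Between FUN025/FUN025 and WT it was 1 with the GC content offset and replicate block together, with the striated muscle and photoreceptor covariates and with the choroid endothelium covariate. Between FUN025/FUN025 and FUN025/+ it was 0 without scaling, at thinned depth and with the fibroblast, Xist and choroid endothelium covariates, and 0 to 1 with each mouse left out.

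Over all genes, 194 and 517 passed against WT in FUN025/+ and FUN025/FUN025 eyecups with the striated muscle and photoreceptor covariates, 1499 and 1615 with the GC content offset and replicate block together, and 628 in FUN025/FUN025 with the choroid endothelium covariate. Between the mutant genotypes 171 passed with DESeq2 and 57 with the choroid endothelium covariate. Each mouse left out gave 1446 to 2722, 1528 to 2701 and 68 to 110 genes, and both of the lowest counts against WT came without WT replicate 4.

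Log2 fold changes in FUN025/+ eyecups changed sign as follows. With the GC content offset Efemp1 was at −0.0070, Fbln5 at −0.014, Loxl1 at 0.030, Mmp14 at 0.050 and Mmp2 at 0.011, and with the replicate block added Efemp1 was at −0.0036, Loxl1 at 0.038, Mmp14 at 0.081 and Mmp2 at 0.065. With the choroid endothelium covariate Efemp1 was at −0.047, Loxl1 at 0.0026, Mmp14 at 0.034 and Mmp2 at 0.18. Mmp2 was at 0.0060 with the fibroblast covariate and 0.0085 with the replicate block, and each mouse left out gave −0.11 to 0.022 for Mmp2 and −0.081 to 0.024 for Mmp14.

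In FUN025/FUN025 eyecups against WT, Fbln5 was at 0.00045 with 10 counts in every library, 0.0021 with DESeq2, 0.0019 with its size factors, 0.016 with upper quartile scaling, 0.0011 with the 2 genotypes alone, 0.019 at thinned depth, 0.022 with protein-coding genes, 2.5e-05 with Xist, 0.061 with the fibroblast and 0.19 with the choroid endothelium covariate. Lox was at −0.055 with the GC content offset, −0.090 with the replicate block added, −0.017 with that block alone, −0.0037 with limma-voom and −0.011 at thinned depth. Efemp1 was at 0.056 with the striated muscle and photoreceptor covariates. Loxl1 was at 0.014 with the GC content offset, and Mmp14 at 0.0032 with the block added. With the choroid endothelium covariate Loxl1 was at 0.073, Mmp14 at 0.053 and Mmp2 at 0.29. Each mouse left out gave −0.037 to 0.048 for Fbln5, −0.11 to 0.010 for Efemp1 and −0.14 to 0.14 for Lox.

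Between FUN025/FUN025 and FUN025/+, the choroid endothelium covariate put Eln at 0.040, Fbln5 at 0.069, Loxl1 at 0.071, Mmp14 at 0.019 and Mmp2 at 0.11, and the fibroblast covariate put Fbln5 at 0.014 and Loxl1 at 0.012. Each mouse left out gave −0.070 to 0.0051 for Mmp14, −0.063 to 0.023 for Fbln5 and −0.036 to 0.038 for Loxl1.

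With the GC content offset and replicate block together Eln in FUN025/FUN025 eyecups was at −0.37 (adjusted p = 0.0634, edgeR). Same-numbered mice are different animals, and the deviations of same-numbered libraries correlated at −0.38 to 0.13 across genes, so the numbers do not pair them. No other fit with the replicate block changed a call of Htra1, Eln or Fbn1 in FUN025/FUN025 eyecups.

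The genes named from the other lists were put through the same settings after the data had been seen, as 36 combinations of gene and comparison that passed. Of these 1 changed sign, Hspg2 in FUN025/FUN025 eyecups, at 0.043 with the choroid endothelium covariate. With a mouse left out 24 of the 36 kept their call throughout. The call of Eng, Hmcn1 or Plat in FUN025/+ eyecups was lost without WT replicate 4, and that of Itgb8 there without WT replicate 2 or 4. Vtn lost its call in both mutant genotypes without WT replicate 1, 2 or 3, in FUN025/+ also without FUN025/+ replicate 3 or 5, and in FUN025/FUN025 also without FUN025/FUN025 replicate 5. Furin in FUN025/FUN025 eyecups against WT lost its call without 7 of the 15 mice, as did Hspg2 and Itgb8 in that comparison without 6, Itgav without 5, and Plat and Serpinh1 without 4. Between the mutant genotypes Itgav kept its call in all 15 of these fits.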
